A study of Homo sapiens with 9 samples.

Results

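The 40 genes described here encode the machinery of mitosis: the mitotic cyclins with CDK1 and its activators, the mitotic kinases, the kinetochore and spindle checkpoint, spindle motors and assembly factors, the central spindle and cytokinesis apparatus, the regulators of anaphase, and the proliferation-linked genes MKI67 and TOP2A. They were taken as a list of names and matched to the symbols of the array's probe sets, current or older. Of the 40 genes, 39 had a probe set of their own and all 39 were bright enough to be tested, among 12239 genes tested and 18132 genes with a probe set. PTTG1, the securin that holds separase inactive, was read only by a probe set shared with PTTG3P and has no value here.

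The cells were R-HepG2, an insulin-resistant form of the human hepatoma line HepG2, per the labels' protocols. They were kept overnight in serum-free DMEM and then for 4 h in plain DMEM, in DMEM with insulin or in DMEM with biomineralized insulin, with 40 ug/ml of either insulin preparation. Each of the 3 groups, called medium, insulin and biomineralized insulin below, held 3 one-colour Affymetrix arrays of biotin-labelled cRNA made from total RNA. In the cell line field the treated samples carry the name HepG2 and only the medium samples R-HepG2, whereas the protocols name R-HepG2 for all. The groups do not include one given the mineral alone, and no source says that the replicates were separate cultures, so p-values measure only the spread between these arrays, which may be technical.

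Mitotic genes are transcribed in a wave that peaks as cells pass from G2 into mitosis. In resting and early G1 cells the DREAM complex holds them down; later the MuvB core of the same complex, joined by B-Myb and FOXM1, switches them on. MuvB recognises an element read as TTTGAA close to the start of many of these genes, and the factor NF-Y binds CCAAT boxes just upstream. The products drive entry into mitosis (cyclin B with CDK1), attach chromosomes to the spindle (the kinetochore), delay anaphase until every chromosome is attached (the checkpoint), and then divide the cell.

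Promoter windows were available for 33 of the 40 genes, each reaching from 250 bases before the start of the transcript to 50 bases from it on, taken from RefSeq on GRCh38.p14. No window was matched for TPX2, FOXM1, BUB3, AURKA, TTK, BIRC5 and UBE2C. The windows of the 3 genes with the largest rise after biomineralized insulin and of the gene with the largest fall are printed 5′ to 3′ along the gene's strand, because the 4 genes moved in opposite directions. Capitals mark every TTTGAA and every CCAAT on either strand, which read TTCAAA and ATTGG where they lie on the opposite strand.
KIF20A, chr5:138178862-138179161, plus strand: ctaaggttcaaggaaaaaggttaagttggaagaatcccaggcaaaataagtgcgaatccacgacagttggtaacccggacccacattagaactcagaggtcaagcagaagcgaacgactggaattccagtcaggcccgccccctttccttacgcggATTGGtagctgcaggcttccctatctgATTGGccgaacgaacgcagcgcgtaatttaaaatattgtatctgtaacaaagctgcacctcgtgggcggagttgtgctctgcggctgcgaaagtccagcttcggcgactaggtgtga
CKS2, chr9:89310945-89311244, plus strand: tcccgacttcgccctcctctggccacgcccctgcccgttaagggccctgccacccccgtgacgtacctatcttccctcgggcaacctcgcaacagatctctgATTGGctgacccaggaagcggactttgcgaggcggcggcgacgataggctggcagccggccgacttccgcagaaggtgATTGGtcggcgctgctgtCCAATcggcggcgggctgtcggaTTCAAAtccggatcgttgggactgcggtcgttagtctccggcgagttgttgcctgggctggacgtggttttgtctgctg
ANLN, chr7:36389612-36389911, plus strand: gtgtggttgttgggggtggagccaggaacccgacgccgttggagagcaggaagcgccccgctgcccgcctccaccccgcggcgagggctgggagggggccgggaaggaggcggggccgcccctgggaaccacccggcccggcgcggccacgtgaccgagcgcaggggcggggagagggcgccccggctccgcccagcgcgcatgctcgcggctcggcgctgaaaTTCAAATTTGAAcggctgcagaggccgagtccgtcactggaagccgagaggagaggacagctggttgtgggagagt
NDC80, chr18:2571307-2571606, plus strand: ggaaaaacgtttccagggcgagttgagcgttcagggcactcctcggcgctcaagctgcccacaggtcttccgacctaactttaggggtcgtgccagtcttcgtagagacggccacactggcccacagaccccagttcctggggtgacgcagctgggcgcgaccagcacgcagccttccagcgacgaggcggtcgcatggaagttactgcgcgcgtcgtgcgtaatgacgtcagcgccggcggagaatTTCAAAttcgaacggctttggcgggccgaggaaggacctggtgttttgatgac

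Both NDC80, which fell, and ANLN and CKS2, which rose, hold a TTTGAA near the start, whereas KIF20A holds none in this window. Only exact TTTGAA was searched for, so its absence from the KIF20A window does not show that MuvB cannot bind there. Counting the first transcribed base as 1 and the base before it as -1, the CKS2 match runs from -29 to -24, those of ANLN from -26 to -21 and from -20 to -15, and that of NDC80 from -3 to 3. KIF20A has 2 CCAAT boxes and CKS2 has 3, and ANLN and NDC80 have none. Among the 33 windows, 23 hold TTTGAA (69.7%), against 18.2% of the 27305 genes with a window of the same length. Between -50 and 50 the share was 60.6% for the mitotic genes and 5.77% for all genes. CCAAT stood in 27 of the 33 windows (81.8%), against 39.7% of all genes, and 1 TTTGAA match overlapped a CCAAT match. By the test against medium described below, TTTGAA was found in 9 of 16 genes that rose, 4 of 4 that fell and 10 of 12 that did neither. The corresponding counts for CCAAT were 15 of 16, 3 of 4 and 8 of 12. Windows with TTTGAA were thus found among genes that rose, genes that fell and genes that did neither.

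The deposited values are log2 signals per probe set, with array medians between 5.46 and 5.50, and arrays of 1 group correlated at 0.9977 to 0.9984 over all probe sets. For each gene the brightest of its probe sets was used, so differences are taken between arrays for the same probe set. Signals of different probe sets were set against the brightness filter, and those of marker genes were also summed on each array. Most markers of liver cells were dim: 10 of the 15 hepatocyte genes with a probe set lay below the brightness filter of 4.74. Among these were ALB at 3.40, APOB at 2.78, AFP at 2.93 and SERPINA1 at 3.85. The others lay above it: APOA1 at 5.87, AHSG at 5.27, TTR at 5.23, TF at 4.88 and FOXA2 at 4.86. The 10 dim markers thus do not bear out the hepatoma label. All 39 mitotic genes had means above the filter, the lowest at 6.79. The summed log2 level of 7 lung epithelium markers was 34.3 to 34.8 on the biomineralized insulin arrays, 32.9 to 33.9 on the medium arrays and 33.5 to 33.8 on the insulin arrays; SFTPA1, SFTPD and SCGB1A1 lay below the brightness filter in this list. NKX2-1 moved most in this list, averaging 6.14 with medium, 6.36 with insulin and 6.73 with biomineralized insulin. The part of this list in the results was not tested. In the squamous epithelium, fibroblast, leukocyte and endothelium lists, the summed levels on the biomineralized insulin arrays overlapped those of both other groups. The summed hepatocyte level ranged from 61.0 to 62.3 on the biomineralized insulin arrays, 60.4 to 62.2 on the medium arrays and 60.9 to 61.9 on the insulin arrays.

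A technical value was higher with biomineralized insulin, and centring the arrays on it moves the zero line of every difference. The poly-A spike-ins, bacterial transcripts added to the RNA and read by 12 probe sets, averaged 7.80 ± 0.17 (SD, n = 3) on the biomineralized insulin arrays, 7.36 ± 0.08 on the medium arrays and 7.39 ± 0.06 on the insulin arrays. The first 3 arrays ranged from 7.68 to 8.002, with replicate 2 at the top, and did not overlap the medium arrays (exact permutation test, two-sided, p = 0.1, the smallest possible with 3 against 3, and 0.225 after adjustment over 9 such tests). With arrays centred on the spike-ins instead of as deposited, the median of all genes tested moved from 0.02 to -0.42 in biomineralized insulin minus medium, and the differences of the mitotic genes moved down with it. Differences below are on the deposited scale, which holds the median of all genes near 0. They therefore say how a gene moved relative to most other genes, and spike-in centred values are given beside them. The signal ratio of 3′ to 5′ actin probe sets, on the log2 scale, was 3.19 ± 0.08 (SD, n = 3) on the insulin arrays. It was 3.02 ± 0.06 on the medium arrays, which the insulin arrays did not overlap, and 3.07 ± 0.10 on the biomineralized insulin arrays. The GAPDH ratio was 0.20 ± 0.02 with biomineralized insulin, 0.17 ± 0.0045 with insulin, without overlap of these 2, and 0.16 ± 0.04 with medium. Both comparisons without overlap had p = 0.1 (exact permutation test, 0.225 after adjustment over the 9 tests). The part of these ratios in the results was not tested.

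After biomineralized insulin, 20 of the 39 mitotic genes rose against medium and 4 fell (limma, Benjamini-Hochberg adjusted p under 0.05 over all genes tested), while after spike-in centring 1 was higher and 25 were lower. The share that rose was 51.3%, against 25.7% of all genes tested, and the share that fell was 10.3%, against 25.2%. Changed genes of either direction made up 61.5% of the mitotic genes and 50.9% of all genes. The median difference was 0.12 for the mitotic genes and 0.02 for all genes (-0.32 and -0.42 after spike-in centring). The changes were small in size: the largest rise, of KIF20A, was 1.68-fold and the largest fall, of NDC80, was 1.83-fold. The 3 biomineralized insulin arrays lay wholly above the 3 medium arrays for 22 genes and wholly below for 5, where 28.9% and 27.7% of all genes did so.

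**Figure D1:**
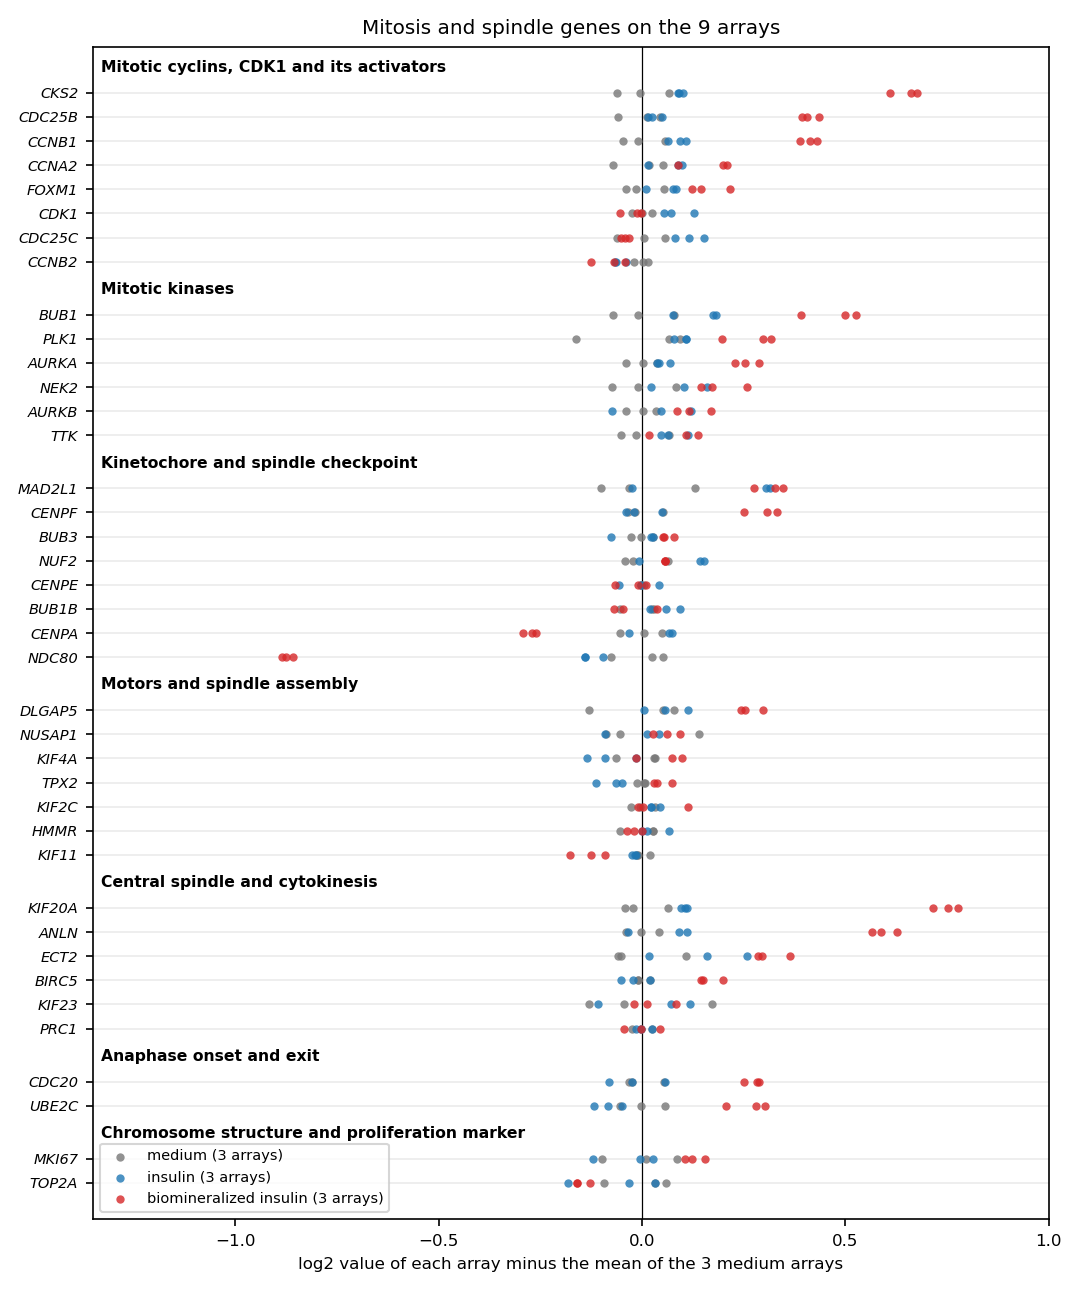
Log2 value of each of 9 arrays minus the mean of the 3 medium arrays (x axis) for 39 mitotic genes (y axis), grouped by role and sorted by the difference between biomineralized insulin and medium. Grey, blue and red points are single medium, insulin and biomineralized insulin arrays as deposited: the red points stand apart to the right for KIF20A, CKS2 and ANLN and to the left for NDC80 and CENPA, and all red points but those of KIF20A, CKS2, ANLN and BUB1 would average below 0 with arrays centred on the spike-ins.

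Insulin itself changed none of the 39 genes against medium by the same test, where 2.45% of all genes tested (300) passed. The differences ran from -0.13 for NDC80 to 0.20 for MAD2L1, with a median of 0.03, and the median over all genes was 0.01. At an unadjusted p under 0.05, 10 of the 39 mitotic genes and 15.8% of all genes passed. The 3 insulin arrays did not overlap the medium arrays for 10 genes, 6 above and 4 below, where 18.3% of all genes did not overlap (9.17% above and 9.10% below). Weighting the arrays by their quality called 3 genes, BUB1 and MAD2L1 higher and NDC80 lower, and leaving out insulin replicate 2 called 2, MAD2L1 and ECT2, both higher. A miss of the threshold does not show that insulin left these genes alike.

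By role the counts are small and are to be read against the 25.7% of all genes that rose and the 25.2% that fell. Among the cyclins, CDK1 and its activators, 5 of 8 genes (62.5%) rose after biomineralized insulin against medium and none fell, with a median of 0.16, whereas after spike-in centring none was higher and 5 were lower. CKS2, a small subunit that docks cyclin-dependent kinases to their substrates, stood at 11.54, 11.41 and 11.47 on the medium arrays, at 11.56, 11.57 and 11.56 on the insulin arrays, and at 12.08, 12.13 and 12.15 on the biomineralized insulin arrays. The last group lay above both others with no overlap. The difference from medium was 0.65 ± 0.03 (SE, 1.57-fold, adjusted p = 1.3e-10; 0.21 after spike-in centring).

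CCNB1, the cyclin B1 that drives entry into mitosis, was at 10.92, 10.85 and 10.82 with medium, at 10.93, 10.97 and 10.96 with insulin, and at 11.25, 11.29 and 11.28 with biomineralized insulin. CDC25B, the phosphatase that starts CDK1 activation, was at 9.89, 9.82 and 9.93 with medium, at 9.91, 9.93 and 9.90 with insulin, and at 10.28, 10.29 and 10.32 with biomineralized insulin. In both genes all 3 biomineralized insulin arrays were the highest of the 9. The CCNB1 difference from medium was 0.41 ± 0.03 (SE, 1.33-fold, adjusted p = 2.9e-08; -0.03 after spike-in centring). That of CDC25B was 0.41 ± 0.04 (SE, 1.33-fold, adjusted p = 1.0e-07; -0.03 after spike-in centring) with its brightest probe set. The other CDC25B probe sets rose less, by 0.12 to 0.20. Those at 0.13 and 0.12 did not pass (limma, adjusted p = 0.18 and 0.27 over all probe sets tested).

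CCNA2, the cyclin A2 of S and G2 phase, rose by 0.17 (adjusted p = 0.0047), and FOXM1, the activator of the late wave of mitotic genes, by 0.16 (adjusted p = 0.0054). After spike-in centring the values were -0.28 for both. CDK1 itself differed by -0.02 ± 0.03 (SE, adjusted p = 0.56), the phosphatase CDC25C by -0.04 ± 0.05 (adjusted p = 0.53) and cyclin B2, CCNB2, by -0.08 ± 0.03 (adjusted p = 0.055). The kinase and its cyclin B1 partner therefore gave different outcomes in the test, although the difference between the 2 genes was not itself tested. CCNB2 passed as lower without biomineralized insulin replicate 2 (adjusted p = 0.036). It also passed with quantile normalization, with arrays centred on their medians, with the dimmest 60% of probe sets left out and with the mean of probe sets (adjusted p from 0.022 to 0.050), and after spike-in centring (-0.52).

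Of the 6 mitotic kinases, 5 rose (83.3%, beside 25.7% of all genes) and none fell (beside 25.2%), with a median of 0.22, while after spike-in centring none was higher and 3 were lower. BUB1, a checkpoint kinase that marks centromeres, was at 9.30, 9.15 and 9.21 with medium, at 9.40, 9.30 and 9.40 with insulin, and at 9.61, 9.72 and 9.75 with biomineralized insulin. Its biomineralized insulin arrays overlapped neither other group, whereas the insulin arrays overlapped the medium arrays. The difference from medium was 0.47 ± 0.05 (SE, 1.39-fold, adjusted p = 6.7e-07; 0.03 after spike-in centring). PLK1, which acts from centrosome maturation to cytokinesis, rose by 0.27 ± 0.07 (SE, adjusted p = 0.0045; -0.17 after spike-in centring), and AURKA, the centrosomal aurora kinase, by 0.26 ± 0.03 (adjusted p = 3.2e-06; -0.18). NEK2, a kinase of centrosome separation, rose by 0.19 ± 0.05 (adjusted p = 0.0028; -0.25 after spike-in centring).

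AURKB, the catalytic subunit of the chromosomal passenger complex, had a difference of 0.12 ± 0.05 just inside the threshold (SE, adjusted p = 0.046; -0.32 after spike-in centring). The call was lost when any 1 array was left out other than insulin replicate 2 or 3, with adjusted p up to 0.16. TTK, the kinase that starts checkpoint signalling, differed by 0.09 ± 0.04 (adjusted p = 0.11). It passed without medium replicate 1 or without biomineralized insulin replicate 1, with an adjusted p down to 0.044.

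Of the 8 kinetochore and checkpoint genes, 2 rose and 2 fell (25% each), shares close to the 25.7% and 25.2% of all genes. Their median was 0.02, and after spike-in centring none was higher and 6 were lower. NDC80, the subunit of the complex that grips microtubule ends, had the largest fall of the 39 genes. It was at 9.92, 9.89 and 9.79 with medium, at 9.73, 9.77 and 9.73 with insulin, and at 8.99, 9.01 and 8.99 with biomineralized insulin. The biomineralized insulin arrays were far below both other groups, and the insulin arrays lay just below the medium arrays. The difference between biomineralized insulin and medium was -0.87 ± 0.04 (SE, 1.83-fold lower, adjusted p = 4.7e-11; -1.31 after spike-in centring). NUF2, the partner of NDC80 in the same complex, differed by 0.06 ± 0.05 (adjusted p = 0.36; -0.39 after spike-in centring). All 3 biomineralized insulin arrays carried the same deposited NUF2 value, 9.1485, so they give no spread for this gene.

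CENPA, the histone H3 variant that defines centromeres, was at 10.92, 10.96 and 10.86 with medium, at 10.99, 10.88 and 10.98 with insulin, and at 10.66, 10.65 and 10.62 with biomineralized insulin. The last 3 arrays were the lowest of the 9, and the difference from medium was -0.27 ± 0.04 (SE, 1.21-fold lower, adjusted p = 1.1e-05; -0.72 after spike-in centring). MAD2L1, the checkpoint protein that sequesters CDC20, was at 10.49, 10.26 and 10.33 with medium, at 10.68, 10.34 and 10.66 with insulin, and at 10.63, 10.69 and 10.71 with biomineralized insulin. Insulin replicate 2 was near the medium arrays, whereas insulin replicates 1 and 3 were near the biomineralized insulin arrays. The difference between biomineralized insulin and medium was 0.32 ± 0.07 (SE, 1.24-fold, adjusted p = 0.0017; -0.13 after spike-in centring).

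CENPF, a large protein of the outer kinetochore that accumulates in G2, rose by 0.30 ± 0.04 (SE, adjusted p = 1.0e-05; -0.15 after spike-in centring). The kinetochore motor CENPE differed by -0.02 ± 0.04 (adjusted p = 0.71), and the checkpoint kinase-like protein BUB1B by -0.03 ± 0.04 (adjusted p = 0.64). BUB3, the partner of BUB1 and BUB1B, differed by 0.06 ± 0.03 with its brightest probe set (adjusted p = 0.11), and its other probe sets disagreed: 1 was lower by -0.33 (adjusted p = 0.00084) and 1 higher by 0.18 (adjusted p = 0.0024), the adjustment here running over all 27220 probe sets tested. BUB3 was the 1 gene of the 39 with probe sets called both ways.

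**Figure D2:**
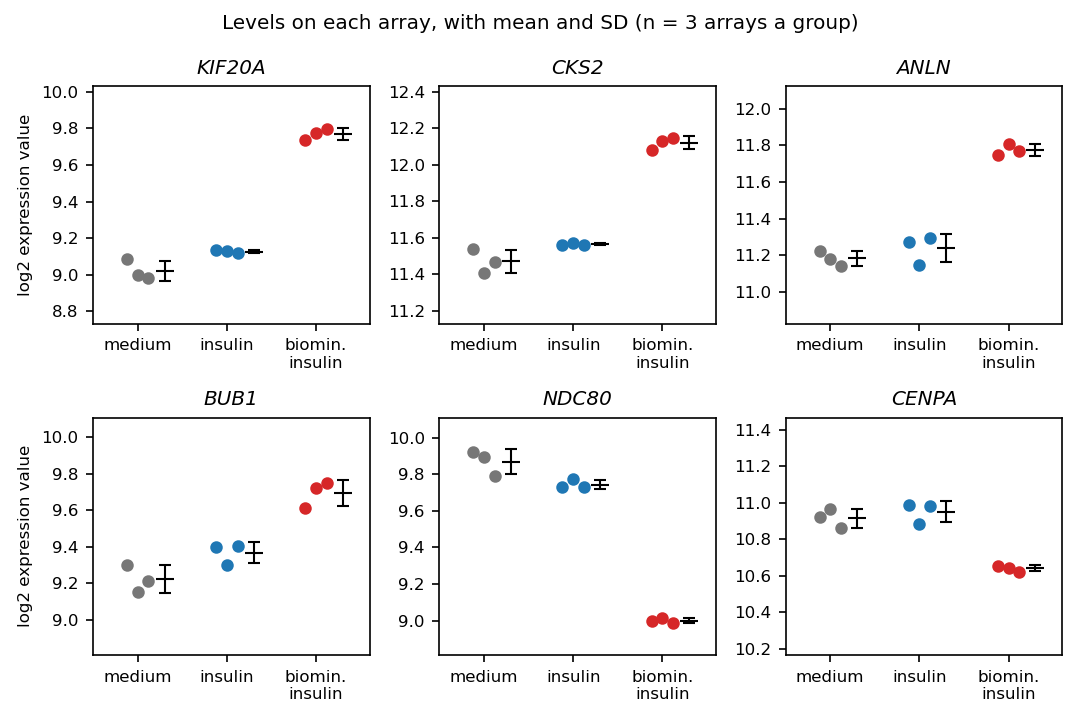
Deposited log2 values (y axis) of 6 mitotic genes in the medium, insulin and biomineralized insulin groups (x axis). Each point is 1 array in replicate order, and black bars give the mean and SD of 3 arrays; every panel spans the same log2 range, and the red biomineralized insulin points lie above all others for KIF20A, CKS2, ANLN and BUB1 and below all others for NDC80 and CENPA.

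Among motors and spindle assembly factors, 1 of 7 rose and 1 fell (14.3% each, beside 25.7% and 25.2% of all genes), with a median of 0.05, and after spike-in centring none was higher and 6 were lower. DLGAP5, which stabilises kinetochore fibres, rose by 0.27 ± 0.05 (SE, adjusted p = 0.00035; -0.18 after spike-in centring). KIF11, the plus-end motor that separates the spindle poles, was at 10.23, 10.19 and 10.20 with medium, at 10.19, 10.19 and 10.18 with insulin, and at 10.08, 10.12 and 10.03 with biomineralized insulin. The biomineralized insulin arrays were lowest with no overlap, and the difference from medium was -0.13 ± 0.03 (SE, 1.10-fold lower, adjusted p = 0.0046; -0.57 after spike-in centring). The KIF11 call was lost when its most variable probe set replaced the brightest (adjusted p = 0.12).

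The other 5 motors and assembly factors did not pass, and their differences ran from -0.02 to 0.06. They were TPX2, the activator of AURKA, at 0.05; the microtubule-bundling NUSAP1 at 0.06; the chromokinesin KIF4A at 0.05; the microtubule-depolymerising kinesin KIF2C at 0.04; and HMMR, a spindle pole protein, at -0.02. Standard errors of these differences were 0.04 to 0.05. NUSAP1 passed when medium replicate 1 was left out (adjusted p = 0.022).

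Genes of the central spindle and cytokinesis held 2 of the 3 largest rises: 4 of 6 rose (66.7%, beside 25.7% of all genes) and none fell (beside 25.2%), with a median of 0.24, and after spike-in centring KIF20A alone was higher and 3 were lower. KIF20A, a kinesin that carries the passenger complex to the central spindle, was at 9.09, 8.999 and 8.98 with medium, at 9.13, 9.13 and 9.12 with insulin, and at 9.74, 9.77 and 9.80 with biomineralized insulin. The biomineralized insulin arrays were clear of both other groups, and the insulin arrays were slightly above the medium arrays without overlap. The difference between biomineralized insulin and medium was 0.75 ± 0.04 (SE, 1.68-fold, adjusted p = 2.8e-10), and 0.31 after spike-in centring (adjusted p = 0.012).

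ANLN, the scaffold of the contractile ring, was at 11.22, 11.18 and 11.14 with medium, at 11.27, 11.15 and 11.29 with insulin, and at 11.75, 11.81 and 11.77 with biomineralized insulin. ECT2, the exchange factor that activates RhoA at the cleavage site, was at 9.89, 9.73 and 9.72 with medium, at 10.04, 9.80 and 9.94 with insulin, and at 10.06, 10.14 and 10.07 with biomineralized insulin. For ANLN the biomineralized insulin arrays were far above the rest, while for ECT2 the highest insulin array came close to them. The ANLN difference from medium was 0.59 ± 0.04 (SE, 1.51-fold, adjusted p = 2.0e-09; 0.15 after spike-in centring). That of ECT2 was 0.31 ± 0.06 (SE, 1.24-fold, adjusted p = 0.00020; -0.13 after spike-in centring), and the call was lost when probe sets that can bind several genes were left out (adjusted p = 0.14).

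BIRC5, the survivin subunit of the passenger complex, rose by 0.17 ± 0.03 (SE, adjusted p = 0.00054; -0.28 after spike-in centring). The bundling protein PRC1 and the kinesin KIF23, which build the central spindle, differed by -0.0008 ± 0.03 (adjusted p = 0.99) and 0.02 ± 0.07 (adjusted p = 0.79). A dimmer KIF23 probe set stood at -0.15 (adjusted p = 0.025 over all probe sets tested). Both measured regulators of anaphase rose, and both had negative values after spike-in centring. CDC20, which activates the anaphase-promoting complex, was higher by 0.27 ± 0.04 (adjusted p = 3.4e-05; -0.17 after spike-in centring), and UBE2C, the ubiquitin-conjugating enzyme of that complex, by 0.26 ± 0.04 (adjusted p = 1.7e-05; -0.18).

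The pair of genes most used as proliferation readouts moved in opposite directions on the deposited scale and were both lower after spike-in centring. TOP2A, the topoisomerase that untangles sister chromatids, was at 11.11, 11.26 and 11.24 with medium, at 11.24, 11.17 and 11.02 with insulin, and at 11.04, 11.08 and 11.04 with biomineralized insulin. Its biomineralized insulin arrays lay below the medium arrays but overlapped the insulin arrays. The difference from medium was -0.15 ± 0.05 (SE, 1.11-fold lower, adjusted p = 0.018; -0.59 after spike-in centring). The call was lost without medium replicate 2 or 3 or biomineralized insulin replicate 1 or 3, with adjusted p up to 0.094. MKI67, which encodes the Ki-67 protein of the surface of mitotic chromosomes, had a difference of 0.13 ± 0.05 (SE, adjusted p = 0.048; -0.31 after spike-in centring). That call was lost without medium replicate 2 or 3, insulin replicate 1 or any biomineralized insulin array, with adjusted p up to 0.21. The MKI67 and AURKB calls were also lost with arrays centred on their medians, with no brightness filter and with no intensity trend. The choice of probe set also ended calls against medium. The MKI67 call was lost with its most variable probe set, and without probe sets able to bind several genes its difference was 0.033 (adjusted p = 0.64). The AURKB call was lost under the same 2 choices, but AURKB has 1 bright probe set, so its own values were the same. The BIRC5 call was lost with plain _at probe sets alone (adjusted p = 0.088). Those of FOXM1 and NEK2 were lost with the mean of a gene's probe sets (adjusted p = 0.099 and 0.18), and that of CCNA2 with its most variable one (adjusted p = 0.053).

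Biomineralized insulin was next compared with insulin at the same dose and time. The same biomineralized insulin arrays enter this comparison and the one against medium, so the 2 are not independent. Against insulin, 16 of the 39 genes were higher (41.0%) and 5 lower (12.8%), beside 21.1% and 23.3% of all genes tested. Genes changed either way made up 53.8% of the 39 and 44.4% of all genes. With spike-in centring the counts turned, and 0 were higher and 26 lower. The median difference was 0.10 for the mitotic genes and 0.02 for all genes tested (-0.39 for all genes after spike-in centring). KIF20A was higher by 0.64 ± 0.04 (SE, adjusted p = 2.4e-09), CKS2 by 0.56 ± 0.03 (adjusted p = 1.2e-09), ANLN by 0.54 ± 0.04 (adjusted p = 9.0e-09) and CDC25B by 0.38 ± 0.04 (adjusted p = 3.3e-07). After spike-in centring these values were 0.23, 0.14, 0.12 and -0.03.

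Those lower than with insulin were NDC80 by -0.75 ± 0.04 (adjusted p = 4.3e-10), CENPA by -0.31 ± 0.04 (adjusted p = 3.7e-06), CDC25C by -0.16 ± 0.05 (adjusted p = 0.018), KIF11 by -0.11 ± 0.03 (adjusted p = 0.014) and CDK1 by -0.11 ± 0.03 (adjusted p = 0.0084), all of them also lower after spike-in centring. For CDK1 the difference was 0.035 with another of its probe sets. The calls of CDC25C, KIF11 and CDK1 were lost without insulin replicate 2 (adjusted p = 0.066), biomineralized insulin replicate 3 (0.074) and insulin replicate 3 (0.050), in that order.

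MAD2L1, PLK1, NEK2, CCNA2, FOXM1, AURKB and TOP2A passed against medium and not against insulin. MAD2L1 differed from insulin by 0.12 ± 0.07 (SE, adjusted p = 0.22), and 2 of its insulin arrays lay within the range of the biomineralized insulin arrays. These differences between the 2 comparisons were not themselves tested. PLK1 gave 0.17 ± 0.07 (adjusted p = 0.062), and passed without medium replicate 3 (adjusted p = 0.023). It also passed with the 6 arrays of this comparison alone, quantile normalization, the mean of probe sets or array weights (adjusted p down to 0.014), while after spike-in centring it stood at -0.24. TPX2 at 0.12 ± 0.04 (adjusted p = 0.014) and KIF4A at 0.13 ± 0.05 (adjusted p = 0.042, with overlapping groups) passed against insulin and not against medium, and stood at -0.29 and -0.28 after spike-in centring. The TPX2 call was lost without insulin replicate 3 or biomineralized insulin replicate 2 (adjusted p up to 0.068). That of KIF4A was lost without any of 5 arrays: medium replicate 2, insulin replicates 1 and 2, and biomineralized insulin replicates 1 and 3 (adjusted p up to 0.16).

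The rest of the division machinery was covered by 5 lists of 154 further genes, of which 150 were tested. Against medium, 43 of them rose after biomineralized insulin (28.7%) and 48 fell (32.0%), with a median of -0.01, close to the 25.7% and 25.2% of all genes (1 higher and 114 lower after spike-in centring). Insulin changed 4 of the 150 (2.67%, beside 2.45% of all genes). These were TOP2B (0.19), the helicase gene PIF1 (0.23) and the tubulin gene TUBA1C (0.18), which rose, and UBE2S (-0.22), a ubiquitin-conjugating enzyme of the anaphase-promoting complex, which fell. After spike-in centring none of the 4 passed (adjusted p = 1 for each), with values of 0.16, 0.20, 0.15 and -0.24 in that order.

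Among the 44 spindle motor, microtubule and cytokinesis genes, 20 rose (45.5%, beside 25.7% of all genes) and 10 fell (22.7%, beside 25.2%), with a median of 0.12 (1 higher and 29 lower after spike-in centring). TUBB4B, a beta-tubulin, rose by 0.92 ± 0.03 (SE, adjusted p = 1.7e-12; 0.48 after spike-in centring), FAM83D, a spindle protein that recruits casein kinase 1, by 0.64 ± 0.05 (adjusted p = 4.8e-08; 0.20), and SPAG5, the spindle protein astrin, by 0.57 ± 0.05 (adjusted p = 3.4e-08; 0.13). PIF1, a DNA helicase kept in this list although it is no spindle protein, rose by 0.50 ± 0.05 (adjusted p = 6.2e-07; 0.06 after spike-in centring).

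In the kinetochore list 6 of 36 genes rose (16.7%, beside 25.7% of all genes) and 18 fell (50.0%, beside 25.2%), with a median of -0.15 (0 higher and 30 lower after spike-in centring). CENPU, of the inner kinetochore, fell by 0.80 on the log2 scale (SE 0.06, adjusted p = 7.1e-09), and SKA1, which couples the outer kinetochore to microtubules as NDC80 does, fell by 0.59 (SE 0.05, adjusted p = 3.0e-08); after spike-in centring the values were -1.24 and -1.03. TRIP13, the ATPase that disassembles checkpoint complexes, rose by 0.52 ± 0.04 (adjusted p = 6.5e-09; 0.08 after spike-in centring), and CENPW by 0.47 ± 0.04 (adjusted p = 1.4e-07; 0.02).

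Of 32 G2/M regulators and subunits of DREAM and MuvB, 9 rose (28.1%, beside 25.7% of all genes) and 11 fell (34.4%, beside 25.2%), with a median of -0.05 (0 higher and 23 lower after spike-in centring). NFYA, a subunit of the CCAAT-binding factor, rose by 0.51 ± 0.05 (adjusted p = 4.7e-07; 0.07 after spike-in centring). CDKN1A, the p21 inhibitor of cyclin-dependent kinases, fell by 0.46 (SE 0.04, adjusted p = 1.2e-07; -0.90 after spike-in centring), and MNAT1, of the CDK-activating kinase, fell by 0.59 (SE 0.05, adjusted p = 3.0e-08; -1.03). LIN54, the MuvB subunit that contacts the TTTGAA element, was lower by -0.52 ± 0.08 (adjusted p = 7.1e-05; -0.96 after spike-in centring) with its brightest probe set, but stood at 0.047 once probe sets able to bind several genes were left out.

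Of 17 genes of the anaphase-promoting complex, UBE2S included, 3 rose and 4 fell (17.6% and 23.5%, beside 25.7% and 25.2% of all genes). Their median was 0.02, and after spike-in centring 0 were higher and 14 lower. CDC26 rose by 0.27 ± 0.04 (adjusted p = 1.6e-05; -0.18 after spike-in centring), while ANAPC10 fell by 0.40 (adjusted p = 2.5e-05), CDC27 by 0.44 (adjusted p = 0.0013, and up to 0.72 with probe sets able to bind several genes left out) and ANAPC16 by 0.25 (adjusted p = 6.0e-05). After spike-in centring these 3 stood at -0.84, -0.88 and -0.70. Of 21 condensin, cohesin and related genes, 5 rose and 5 fell (23.8% each, beside 25.7% and 25.2% of all genes; median 0.02; 0 higher and 18 lower after spike-in centring). TOP2B, the topoisomerase II that resting cells also use, rose by 0.56 ± 0.03 (adjusted p = 3.5e-10; 0.12 after spike-in centring), unlike TOP2A in sign. The condensin subunits NCAPD2 and NCAPH rose by 0.36 and 0.34 (adjusted p = 3.3e-05 and 3.0e-06; -0.08 and -0.10 after spike-in centring). The cohesin loader NIPBL fell by 0.32 (adjusted p = 1.7e-05; -0.77 after spike-in centring). Its probe sets ran from -0.54 to -0.06, and the call was lost with plain _at probe sets alone (adjusted p = 0.24).

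For comparison with earlier steps of the cell cycle, 51 DNA replication and G1/S genes were followed. After biomineralized insulin, 8 rose (15.7%, beside 25.7% of all genes) and 24 fell (47.1%, beside 25.2%). Their median was -0.06, and after spike-in centring 0 were higher and 44 lower. E2F8 fell by 0.80 (SE 0.07, adjusted p = 8.3e-08), the replication-origin kinase gene CDC7 by 0.56 (SE 0.05, adjusted p = 2.5e-07), the primase subunit PRIM1 by 0.56 (SE 0.03, adjusted p = 6.2e-10) and E2F7 by 0.54 (SE 0.05, adjusted p = 1.7e-07), with a second E2F7 probe set at 0.20. After spike-in centring the values were -1.24, -1.004, -1.002 and -0.98 in that order. The mitotic genes had 51.3% higher and 10.3% lower in the same comparison. The difference between the lists was not tested.

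**Figure D3:**
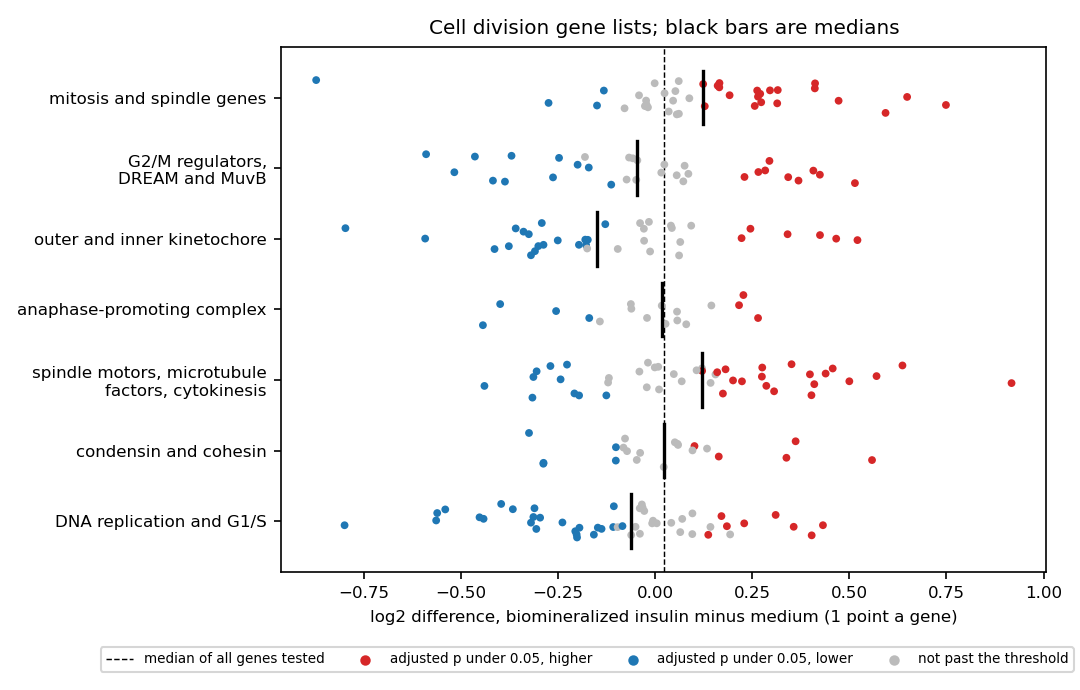
Log2 difference between biomineralized insulin and medium (x axis, deposited scale) for each gene of 7 lists (y axis), 1 point a gene; red and blue mark genes higher and lower at an adjusted p under 0.05, black bars are list medians and the dashed line is the median of all genes tested. The medians run from -0.15 for the kinetochore list to 0.12 for the mitotic genes and all would be negative after spike-in centring; CDC25A, which stands in both the G2/M and the replication list, is drawn once.

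The order of the mitotic genes did not depend on the scaling, since centring on the spike-ins subtracts 1 constant from every difference. What changed was the zero line. KIF20A remained higher than medium (adjusted p = 0.012), CKS2, ANLN and BUB1 kept positive values that did not pass (adjusted p = 0.071, 0.19 and 0.80), and the other 16 genes that had risen turned negative, whereas NDC80, CENPA, TOP2A and KIF11 were lower under both scalings. Without biomineralized insulin replicate 2, whose spike-ins were the brightest, the same centring gave 3 genes higher and 22 lower, the higher ones being KIF20A (0.40, adjusted p = 2.9e-05), CKS2 (0.30, adjusted p = 0.00036) and ANLN (0.23, adjusted p = 0.0068). Against insulin, that setting gave 3 higher, again KIF20A, CKS2 and ANLN, and 23 lower.

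**Figure D4:**
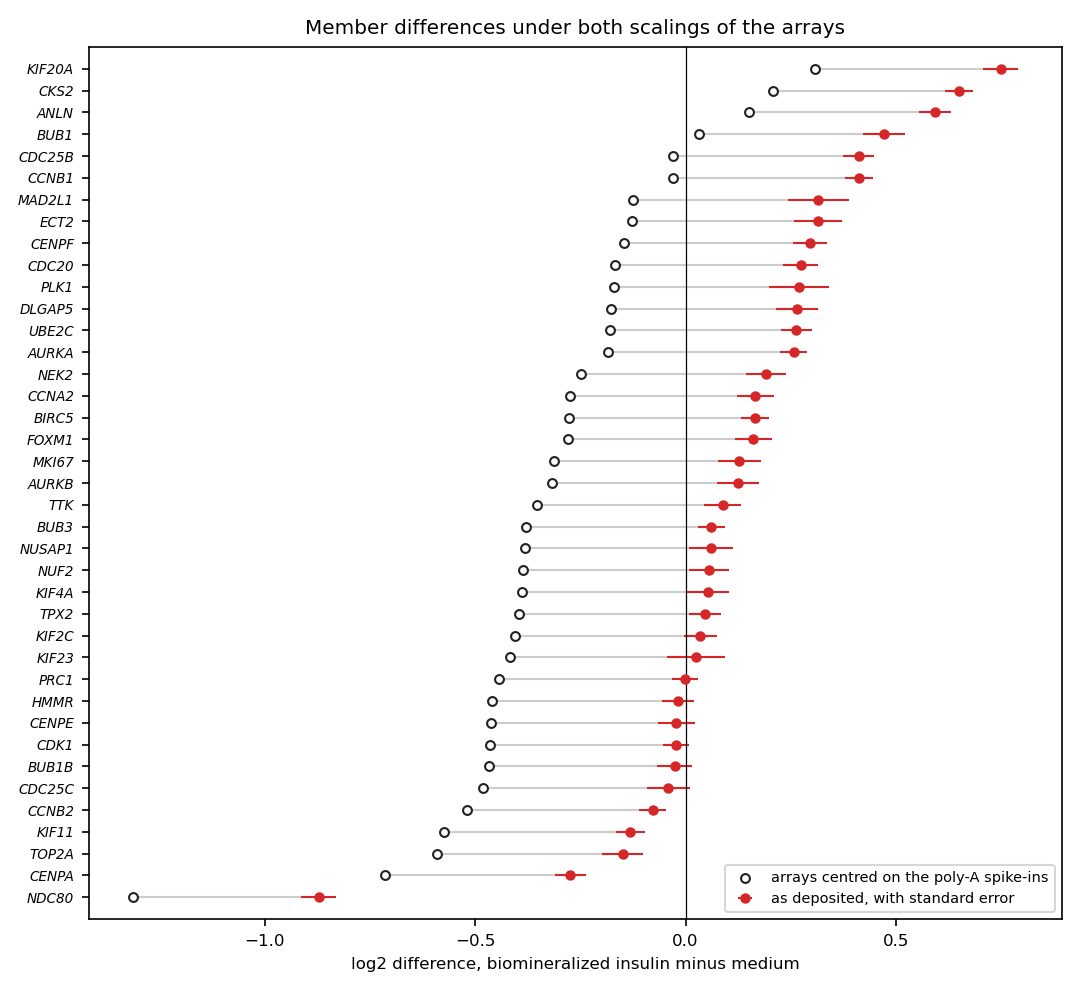
Log2 difference between biomineralized insulin and medium (x axis) for 39 mitotic genes (y axis, sorted), as deposited with standard errors (red) and with arrays centred on the poly-A spike-ins (open circles). The red points run from -0.87 (NDC80) to 0.75 (KIF20A) and each open circle lies 0.44 to the left of its red point; on the centred scale 4 genes have positive differences, KIF20A, CKS2, ANLN and BUB1, and KIF20A alone passed the test.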

How the data were processed

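Expression was measured on 9 one-colour Affymetrix arrays of R-HepG2 cells, 3 for each of medium, insulin and biomineralized insulin. The authors deposited log2 values per probe set; the software was not given in the sources used here. Of 49395 probe sets, 44988 carried 1 gene symbol in the platform annotation, 1832 several, 2473 none and 102 were controls, and 44961 symbols were updated through Entrez identifiers. The dimmest 40% of probe sets (mean under 4.74) were left out, and the brightest probe set of each gene was kept. limma 3.58.1 in R 4.3.3 (lmFit, eBayes with an intensity trend) was fitted to all 9 arrays, with 6 residual degrees of freedom, 3 contrasts and Benjamini-Hochberg adjustment over 12239 genes. The fit was tested on simulated data. Array controls were compared with exact permutation tests. The number of arrays limits the precision. The mitotic genes and all lists were chosen with earlier results of these data known. Every mitotic gene is accounted for; values on every array are given for up to 8 rises and 8 falls with the largest change against medium, and up to 4 changed genes are named from each further list. Groups and replicate numbers came from sample titles. Same-numbered arrays correlated at -0.234 to 0.167 in their deviations from the group means, so arrays were not treated as paired. Differently numbered arrays of 2 groups correlated at -0.360 to 0.337, and whether arrays shared a batch was not tested. The 24 alternatives were other normalizations, spike-in centring, filters, probe set choices, model settings, a replicate block and leaving out each array; 2 of them were chosen after seeing the data (leaving out probe sets with the suffixes _s_at and _x_at, and spike-in centring without biomineralized insulin replicate 2).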

Additional observations from a re-analysis of the deposited data

How the results depend on the processing

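Centring the arrays on the spike-ins reversed the sign of many differences. Against medium the values became MKI67 -0.31, CCNA2 -0.28, CCNB1 -0.030, CDC20 -0.17, CDC25B -0.030, BUB3 -0.38, AURKA -0.18, AURKB -0.32, PLK1 -0.17, KIF23 -0.42, KIF2C -0.41, KIF4A -0.39, TTK -0.35, CENPF -0.15, TPX2 -0.39, BIRC5 -0.28, FOXM1 -0.28, NUF2 -0.39, MAD2L1 -0.13, UBE2C -0.18, DLGAP5 -0.18, NUSAP1 -0.38, ECT2 -0.13, NEK2 -0.25, CDC26 -0.18, NCAPD2 -0.080 and NCAPH -0.10. Against insulin they became MKI67 -0.25, CCNA2 -0.31, CCNB1 -0.089, CDC20 -0.12, CDC25B -0.030, BUB1 -0.085, BUB3 -0.34, AURKA -0.21, AURKB -0.32, KIF2C -0.41, KIF4A -0.28, TTK -0.40, CENPF -0.11, TPX2 -0.29, BIRC5 -0.23, FOXM1 -0.31, MAD2L1 -0.30, UBE2C -0.066, DLGAP5 -0.21, NUSAP1 -0.34, ECT2 -0.24 and NEK2 -0.32. On that scale 1 mitotic gene was higher and 25 lower against medium, and 0 higher and 26 lower against insulin; leaving out biomineralized insulin replicate 2 as well gave 3 and 22 against medium, and 3 and 23 against insulin. With the probe set of largest variance BUB3 stood at -0.33 against medium and CDK1 at 0.035 against insulin. Without _s_at and _x_at probe sets, LIN54 stood at 0.047 against medium and CDK1 at 0.035 against insulin. Restricting the data to probe sets with the plain _at suffix left 5 mitotic genes, of which 1 was higher and 2 lower against medium (3 changed) and 0 higher and 1 lower against insulin (1 changed). Against insulin, 3 genes were lower at an adjusted p of 0.01. For insulin against medium, array weights called 3 genes (2 higher, 1 lower). Where no cause follows from the setting itself, the cause was not tested.

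Leaving out 1 array at a time, 21 to 25 of the mitotic genes changed against medium (18 to 21 higher, 3 to 5 lower), 18 to 22 against insulin (14 to 17 higher, 4 to 5 lower), and 0 to 2 for insulin against medium (0 to 2 higher, 0 lower). A fit with the replicate block gave 19 higher and 4 lower against medium, losing AURKB, 16 and 5 against insulin, and 0 for insulin against medium. Nothing in the labels says that the replicate numbers pair the arrays. Over all genes, insulin against medium gave 300 changes, and between 5 and 605 under the alternatives. Over all genes, spike-in centring gave 9544 changes in place of 6230 against medium and 9606 in place of 5433 against insulin, and the plain _at restriction gave 1806 and 1569. The dimmest values and the 3 arrays a group limit what could be detected.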

Other observations

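Several probe sets of 1 mitotic gene did not always move together, and these values were singled out after they were seen. Over all 98 probe sets of the 39 genes, 42 were higher (42.9%) and 13 lower (13.3%) after biomineralized insulin than with medium, beside 22.0% and 24.0% of the 27220 probe sets tested. HMMR, whose brightest probe set differed by -0.02, had another at -0.28 (adjusted p = 0.0094). PRC1, at -0.0008 with its brightest probe set, had another at -0.28 (adjusted p = 0.0014). With insulin, these dimmer HMMR and PRC1 probe sets already stood at -0.21 and -0.23 against medium. None of the 98 probe sets passed in that comparison. The HMMR probe set averaged 7.52 with insulin and 7.45 with biomineralized insulin. The PRC1 probe set differed by -0.05 between biomineralized insulin and insulin. All 3 probe sets of TOP2A were lower with biomineralized insulin than with medium, by -0.15, -0.14 and -0.34 (adjusted p = 0.025, 0.018 and 0.00015). These adjustments ran over all probe sets tested rather than over genes.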
